A study of Homo sapiens with 10 samples.

Results

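The peaks described here are the binding sites of wild-type (WT) MYC at which the ends of 2 neighbouring protein-coding genes meet. A WT peak was taken when its summit lay within 1 kb of an end of 2 or more protein-coding genes whose spans do not contain each other, and 538 of 4749 WT peaks met that rule (11.3%, Wilson 95% interval 10.5 to 12.3%). A further 2289 WT summits lay within 1 kb of exactly 1 gene and serve as the comparison. The remaining peaks were 30 near genes that contain each other and 1892 away from gene ends. Of the 538, 519 touched 2 genes and 19 touched 3. They fell at 526 different gene pairs, 12 of which carried 2 peaks, and reached 1060 genes.

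MYC binds DNA as a partner of MAX, best at the E-box CACGTG, and in dividing cells it is found at the CpG-rich starts of most active genes. Many human genes are arranged head to head, with 2 nearby starts on opposite strands that share 1 promoter region. Such bidirectional promoters are known for housekeeping genes, among them genes of DNA repair and of mitochondria. A peak there cannot be assigned to 1 of the 2 genes.

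Binding was measured by ChIP-Rx, in which chromatin of another species is added as a reference, here mouse NIH3T3 fibroblasts. The human cells were U2OS, an osteosarcoma line whose own MYC gene had been knocked out, and each made FLAG-tagged MYC under doxycycline control, as WT or as one of the mutants 3A and 7A. The sources used here do not say whether each line was 1 clone or which residues the mutants change. The 10 libraries form 6 groups: FLAG immunoprecipitates of WT, 3A and 7A after 24 h of doxycycline at 1 µg/mL and of uninduced WT, with 2 libraries each, and inputs of induced and uninduced WT with 1 each. The series calls the 2 libraries biological replicates. Each induced protein has 1 deposited peak list (4749 WT, 845 3A and 64 7A peaks), so there is no spread between replicates and no test between proteins. Intervals cover counting error over peaks or genes, treated as independent, which neighbouring genes are not. Read depth per library is unknown here. No site could be set against its level in uninduced cells, whose peaks were not analysed here. The fold of a peak is the authors' enrichment over local background and ranks peaks within 1 list only.

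The DNA between 2 facing starts is shown for some of the strongest sites. RefSeq promoter sequences (GRCh38.p14) covered the whole stretch between the outermost starts of 162 member peaks. These windows reach 250 bases before a start, so only short stretches could be covered, the longest being 244 bp. The count leaves out stretches under 20 bp and chromosomes whose sequence was not used. The first 5 below are the strongest of these by WT fold, and the last is the textbook chaperone pair. All are on the forward strand, 5′ to 3′, and capitals mark CACGTG.

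PMS2/AIMP2, chr7:6009107-6009271: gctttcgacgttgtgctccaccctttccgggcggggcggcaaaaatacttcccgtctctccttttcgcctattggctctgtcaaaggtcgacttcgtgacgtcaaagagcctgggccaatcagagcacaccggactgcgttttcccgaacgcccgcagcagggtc
SDF4/B3GALT6, chr1:1232002-1232236: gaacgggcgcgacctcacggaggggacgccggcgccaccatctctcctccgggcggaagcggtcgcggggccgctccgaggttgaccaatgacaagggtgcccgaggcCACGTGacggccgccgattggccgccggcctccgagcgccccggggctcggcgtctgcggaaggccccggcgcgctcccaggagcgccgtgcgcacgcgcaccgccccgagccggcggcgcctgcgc
ASPRV1/PCBP1, chr2:70087376-70087476: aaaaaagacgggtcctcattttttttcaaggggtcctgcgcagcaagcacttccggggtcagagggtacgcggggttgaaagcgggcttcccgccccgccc
DDX31/GTF3C4, chr9:132669984-132670034: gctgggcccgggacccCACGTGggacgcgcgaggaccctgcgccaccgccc
CHTF8/UTP4, chr16:69132589-69132648: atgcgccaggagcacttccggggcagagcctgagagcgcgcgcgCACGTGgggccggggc
HSPD1/HSPE1, chr2:197500275-197500378: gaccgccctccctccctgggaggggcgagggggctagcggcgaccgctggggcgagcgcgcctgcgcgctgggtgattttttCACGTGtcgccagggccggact

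Of these 6 stretches, 4 hold CACGTG and those of PMS2/AIMP2 and ASPRV1/PCBP1 do not. None of the 6 holds the WT summit itself. The summit lay 346 bp from the PMS2 start and 180 bp from the AIMP2 start, on the AIMP2 side, and 15 and 67 bp from the starts of DDX31 and GTF3C4, on the DDX31 side. Counted per member peak, 19 of the 162 stretches held CACGTG and 28 held the summit. The stretches of CYB561A3/TMEM138, DHX32/FANK1 and ZCWPW1/MEPCE, with 2 peaks each, were counted 2 times.

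The strongest sites joined genes of unlike function. PMS2, a DNA mismatch repair gene, and AIMP2, a scaffold of the multi-tRNA synthetase complex, shared the highest WT fold of the group, 18.6 (chromosome 7, 6008759 to 6009641), and also had a 3A peak of fold 5.18 and no 7A peak. SDF4, a Golgi calcium-binding protein gene, and B3GALT6, a galactosyltransferase gene, had 17.8 with neither mutant (chromosome 1, 1232231 to 1232962). CAD, which encodes an enzyme of early pyrimidine synthesis, had 17.5 with neither mutant, at a summit 116 bp from its start and 302 bp from the 3′ end of ATRAID before it. SUGP2/ARMC6 followed with 17.1 and no mutant peak. These values show that a high WT fold here came both with and without a 3A peak.

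The next site was the only one of the 10 strongest that all 3 proteins bound. It lies beside ASPRV1, a skin protease gene, and PCBP1, which encodes a poly(C)-binding RNA regulator, with folds of 16.3 for WT, 6.75 for 3A and 2.45 for 7A, each within its own list (chromosome 2, 70086011 to 70088206). RPL5, a large-subunit ribosomal protein gene, overlaps one end of DIPK1A and had 15.6 with WT and 7.60 with 3A, the highest 3A fold of the group. RRP9, a U3 snoRNP protein gene, and PARP3 had 14.2 and no mutant peak. METTL1, a tRNA methyltransferase gene, with EEF1AKMT3 had 13.5 and a 3A fold of 5.06. SNX5, a sorting nexin gene, with the mitochondrial nuclease gene MGME1 had 13.5 and 5.55. DDX31/GTF3C4, a helicase and a TFIIIC subunit, closed the 10 with 13.3 and no mutant peak. In all, 5 of the 10 had a 3A peak. The share was 21% over all 538 members and 43.4% over the 143 with WT folds of 6.76 or more.

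Most of the sites were places where 2 genes start. Strand is known for both genes of 406 members, since the RefSeq promoter table covers 15842 of 20037 protein-coding genes. Of these 406, 338 joined 2 starts (83.3%, 79.3 to 86.6%), 67 joined a start to a 3′ end and 1, TM7SF2/ZNHIT2, joined 2 3′ ends. The genome holds 4315 pairs of gene ends within 2 kb of each other under the same containment rule, and among the 3050 with known strands 40.3% joined 2 starts, 29.2% a start and a 3′ end, and 30.5% 2 3′ ends. In the 67 mixed members the summit was nearer the start in 56 (83.6%, 72.9 to 90.6%). Here a start or 3′ end means the outermost end of the gene in RefSeq, and starts inside a gene were not seen.

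Read from the genome side, 12.7% of all 4315 pairs had a WT summit within 1 kb of both ends, and 16.7% of protein-coding genes had one within 1 kb of an end. Among pairs, the share rose with the number of starts at the site. It was 27.8% for 1228 pairs of starts (25.3 to 30.3%), 7.86% for 891 pairs of a start and a 3′ end (6.27 to 9.81%) and 0.43% for 931 pairs of 3′ ends (0.167 to 1.1%). Lone starts, with no other protein-coding gene end within 2 kb, had a WT summit in 14.4% of 11980 (13.8 to 15.1%), and lone 3′ ends in 0.372% of 12365. The intervals of paired and lone starts do not overlap. Mixed pairs had a lower share than lone starts, but the stretch within 1 kb of both ends is shorter. Per Mb of the stretch counted, WT summits numbered 176 at pairs of starts, 75.4 at mixed pairs and 73.4 at lone starts. A summit within 1 kb of at least 1 of the 2 starts was found at 30.9% of the pairs of starts (28.3 to 33.5%). At the lone-start share, 2 independent starts would have at least 1 summit in 26.8%. That value lies below the interval, and by this measure paired starts stood slightly higher. The reckoning counts the DNA around each of the 2 starts separately, which is not the layout of a pair. The starts of a pair lay a median of 234 bp apart, so the DNA within 1 kb of them is largely shared but longer than at a lone start. Activity of these genes in U2OS cells was not measured, and its part in the shares was not tested.

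3A gave the same order of sites at lower shares. It had a summit at 6.68% of the pairs of starts (5.41 to 8.21%), 2.9% of lone starts (2.62 to 3.22%), 1.68% of mixed pairs and 0.107% of pairs of 3′ ends. A 3A summit within 1 kb of at least 1 start was found at 7% of the pairs of starts (5.71 to 8.57%). For 2 independent lone starts, again with separate DNA around each, the share would be 5.73%, which lies inside that interval. 7A had a summit at 2 of the 1228 pairs of starts and at 10 of the 11980 lone starts. Paired ends held 11.3% of the WT summits. They held 128 of the 845 summits of 3A (15.1%, 12.9 to 17.7%). For 7A they held 3 of 64 (4.69%, 1.61 to 12.9%). The WT and 3A intervals do not overlap when all peaks are the base. Among summits near 1 gene or paired ends only, the paired share was 19% for WT (17.6 to 20.5%) and 22.2% for 3A (19 to 25.8%), and these intervals overlap. Most of these 3A peaks lie on WT peaks, so the shares are not from separate sites.

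**Figure D1:**
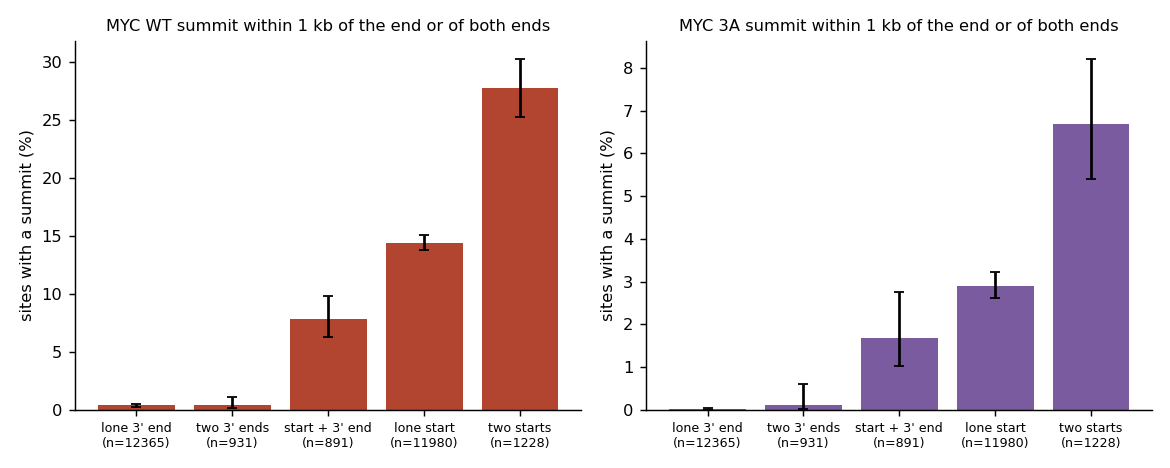
Share of gene-end sites in the genome with a summit (percent, vertical axes) by kind of site (horizontal axes, number of sites below each bar), for WT on the left and 3A on the right, on axes of different range, with Wilson 95% intervals as lines. Pairs of starts stand highest in both panels, at 27.8% for WT and 6.68% for 3A, and sites made of 3′ ends alone stand near 0.

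Up to 1 kb between the 2 starts, the shares bound by WT had overlapping intervals. WT had a summit at 25.8% of pairs with starts 0 to 100 bp apart (20.6 to 31.7%), at 32.9% of those more than 100 and up to 300 bp apart (29 to 37.1%), at 28.8% for up to 600 bp (23.7 to 34.6%) and at 23.3% for up to 1000 bp (16.5 to 31.7%). The share was 10.1% for more than 1000 and up to 2000 bp (5.73 to 17.2%), where the stretch within 1 kb of both starts is shortest. Per Mb of that stretch the density in the last range, 163 summits, was within the 139 to 206 of the others. The members' starts lay a median of 215.5 bp apart (quartiles 128 to 395 bp). In 100 of the 338 the 2 gene spans overlapped.

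WT summits at pairs of starts sat close to 1 start. The median distance to the nearer start was 81 bp, against 192 bp for the 1869 peaks near 1 gene whose near end was its start. Of the paired summits 55.6% lay within 100 bp of the nearer start (50.3 to 60.8%), against 29.3% (27.3 to 31.4%). Part of this follows from the rule, since the nearer of 2 starts is taken and both must lie within 1 kb. Of the 338 summits 71.3% (66.3 to 75.9%) lay on the gene's side of the nearer start. Among the 238 pairs of starts with separate spans it was 187 (78.6%, 72.9 to 83.3%). Among the 100 with overlapping spans it was 54% (44.3 to 63.4%), with a median offset of 23.5 bp (-51 to 54 bp), so these showed no clear side. For comparison, 62.4% of lone-start summits (60.2 to 64.6%) lay inside their gene. With a gap shared by both genes, less of the DNA near a start lies outside a gene, so the 2 shares have different bases.

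**Figure D2:**
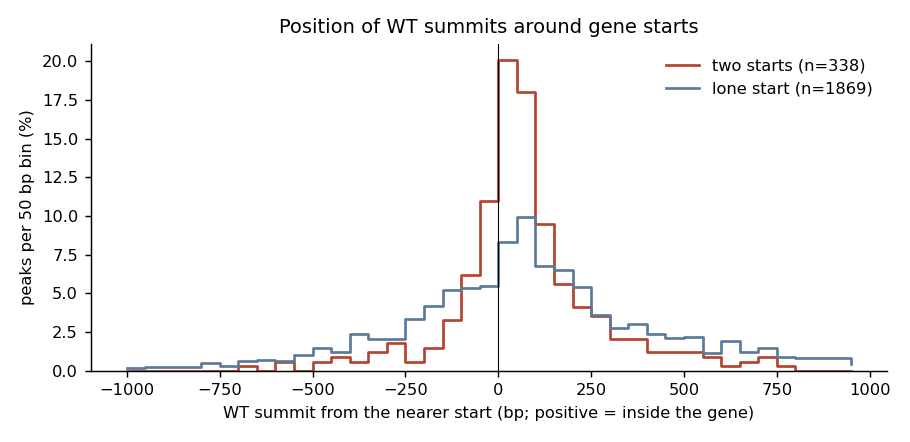
Position of the WT summit relative to the nearer gene start (bp, horizontal axis, positive inside the gene in the direction of transcription) as the percent of peaks in bins of 50 bp (vertical axis), for 338 peaks at 2 starts and 1869 near 1 start. The paired peaks pile up just inside a start, with a median of 54 bp, and the lone-start peaks spread wider around a median of 68 bp.

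Peaks at paired ends were slightly wider than peaks at 1 gene, with no detectable difference in fold. Their median width was 916.5 bp (quartiles 684 to 1223 bp) against 845 bp (657 to 1119 bp), a difference of 71.5 bp (95% interval 20.5 to 127 bp). Widths over 1000 bp were found in 42.8% against 34.8%. The median WT fold was 5.14 (4.07 to 6.88) against 5.05 (4.07 to 6.73), a difference of 0.0874 whose interval, -0.123 to 0.278, includes 0. The authors' median −log10 q was 27.6 against 25.3, a difference of 2.29 (0.0581 to 4.86). Within 4 ranges of WT fold the width difference averaged 66.2 bp, but in the lowest range the medians were 756 bp at paired ends and 758.5 bp at 1 gene. In the other ranges they were 854 against 770 bp, 975 against 861 bp and 1089 against 1020 bp. It was 64.5 bp (11.2 to 135 bp) between peaks at 2 starts and peaks at 1 start.

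**Figure D3:**
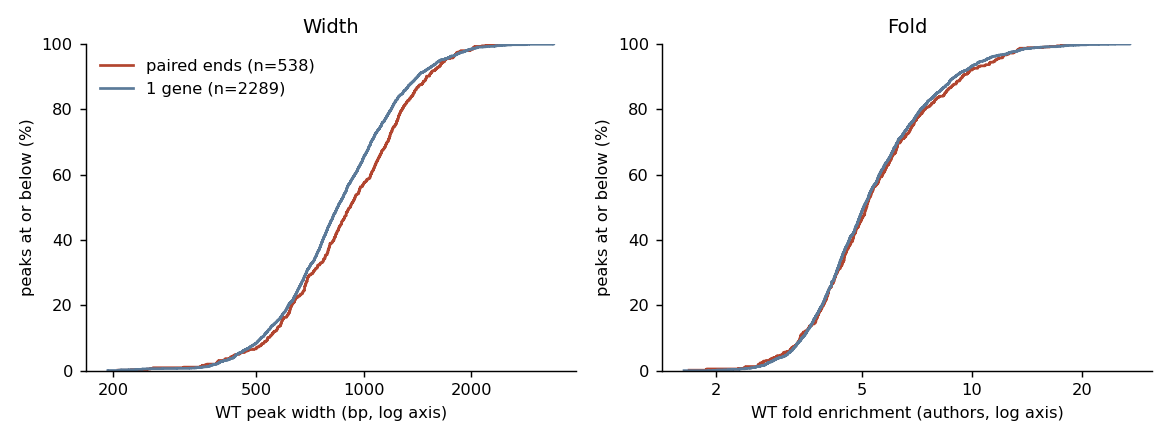
Cumulative percent of WT peaks (vertical axes) by width in bp on the left and by the authors' fold enrichment on the right (log horizontal axes), for 538 peaks at paired ends and 2289 near 1 gene. The width curve of the paired peaks lies to the right, with medians of 916.5 and 845 bp, and the fold curves lie on top of each other.

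Width followed the gap between starts only loosely. The median was 837.5 bp (766 to 907 bp) where starts were 0 to 100 bp apart and 927.5 bp (854 to 1075 bp) for gaps above that and up to 300 bp, and gaps of more than 1000 bp had 1111 bp over only 12 peaks (689 to 1288 bp). The 5 widest were at P3H4/FKBP10 (2609 bp), PCID2/CUL4A (2413 bp), ASPRV1/PCBP1 (2196 bp), BOP1/HSF1 (2139 bp) and CBX5/HNRNPA1 (2045 bp). Of these 3 had a 3A peak, and BOP1/HSF1 and CBX5/HNRNPA1 had none. Over the 170 members of at least 1144 bp the 3A share was 29.4%. The WT folds of the 5 widest ran from 5.17 at PCID2, a nuclear mRNA export gene, to 16.3 at PCBP1. A wide peak was thus not always a strong one.

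The 12 pairs with 2 WT peaks had folds from 1.69 at ZCWPW1/MEPCE to 7.35 at TXNL4A/RBFA. Among them were CATSPERZ/ESRRA, the latter an orphan nuclear receptor gene, with folds of 7.19 and 5.01, and MIX23/FAM162A with 5.79 and 5.70. The peak at 1.69 had the lowest fold of all members, and the other peak of that pair had 4.14. Just inside the 1 kb limit were CATSPERZ/ESRRA (farther end at 1000 bp), EIF6/FAM83C (998 bp) and the stronger MIX23/FAM162A peak (993 bp). Just outside were ZNF593/C1orf232 (1002 bp, WT fold 5.30), LOC124906255/PIGZ (1004 bp, 6.28) and ATXN7/THOC7 (1006 bp, 3.61). Folds on the 2 sides overlapped.

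3A shared slightly more of the paired sites. It overlapped 15.1% of all WT peaks by at least 1 bp and 113 of the 538 at paired ends (21%, 17.8 to 24.6%), against 394 of 2289 at 1 gene (17.2%, 15.7 to 18.8%), a difference of 3.79 percentage points (0.186 to 7.73). The difference narrowed with stricter sharing, to 1.72 points (-1.32 to 5.17) when at least 50% of both peaks had to overlap and to 1.09 points (-1.93 to 4.51) for summits within 100 bp, and these intervals include 0. It was 2.98 points (-0.764 to 6.72) within 4 ranges of width and 3.38 (-0.204 to 6.96) within 4 ranges of WT fold. Between pairs of starts and lone starts it was 3.7 points (-0.712 to 8.66). The interval of the difference thus excluded 0 for all peaks under the 1 bp rule without ranges, and included 0 in each of these other forms.

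In both classes the 3A share was highest among the strongest WT peaks. In the top of 4 equal ranges of peaks, with WT folds from 6.76 to 27.0, 62 of 143 paired peaks (43.4%, 35.5 to 51.5%) and 190 of 564 at 1 gene (33.7%, 29.9 to 37.7%) had a 3A peak. In the second range from the bottom the order was the other way, 9.92% against 13%, with overlapping intervals. Across the 113 shared members the WT and 3A folds gave rho = 0.573 and r = 0.634 on log2 values, and across 394 shared peaks at 1 gene rho = 0.519. These are descriptions over peaks, not over replicates. The 3A summit lay a median of 55 bp from the WT summit at paired ends and 47 bp at 1 gene.

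**Figure D4:**
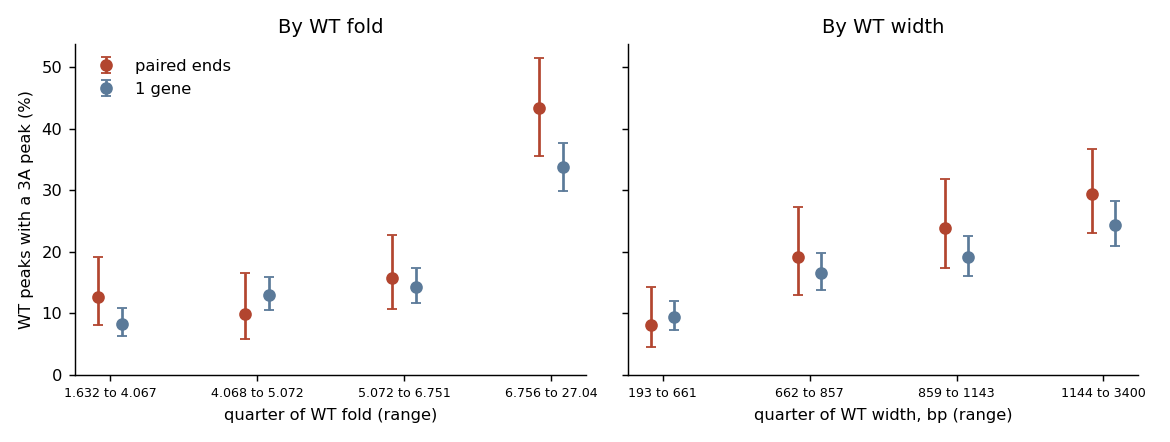
Percent of WT peaks that overlap a 3A peak (vertical axis) in 4 equal ranges of WT fold (left) and of WT width (right), for peaks at paired ends and near 1 gene, with Wilson 95% intervals. In the top range of fold the paired peaks stand at 43.4% and the others at 33.7%, and the intervals overlap in all 8 ranges.

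The 10 highest 3A folds among the members included 3 ribosomal protein genes. After RPL5/DIPK1A (7.60) and ASPRV1/PCBP1 (6.75) came RPL36A with BTK (5.79) and SNX5/MGME1 (5.55). RAD1, a DNA damage checkpoint clamp gene, with BRIX1, a ribosome biogenesis gene, had a 3A fold of 5.41 at a moderate WT fold of 6.78. ULK3/SCAMP2 (5.24), PMS2/AIMP2 (5.18), COG4/SF3B3 (5.11) and METTL1/EEF1AKMT3 (5.06) followed. The last of the 10 was RPL7A with MED22 (4.91), at a WT fold of 5.78. The WT folds at the other 8 of these sites were 11.5 or higher.

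7A bound few of the paired sites. It overlapped 1.03% of all WT peaks, 2 of the 538 members (0.372%, 0.102 to 1.35%) and 17 of the 2289 peaks at 1 gene (0.743%, 0.464 to 1.19%), a difference of -0.371 points (-0.89 to 0.642) that was not detectable at these counts. The 2 were ASPRV1/PCBP1 and COG4/SF3B3, where SF3B3 encodes a U2 snRNP splicing factor (WT fold 11.5, 3A fold 5.11, 7A fold 3.27). Both also had a 3A peak. The third 7A summit at paired ends, RGS5/NUF2 (fold 3.13), had no WT peak. Of the 128 3A summits at paired ends 116 overlapped a WT peak and 12 did not. The highest folds among the 12 were at ARMCX5/ARMCX5-GPRASP2 (4.58), SMC1A/RIBC1 (4.15) and TYW5/MAIP1 (3.63).

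The gene groups differed in how often their WT-bound members were reached at a paired end. Over all protein-coding genes, 1060 of 3352 WT-bound genes (31.6%) had a member peak. Oxidative phosphorylation genes stood at 25 of 40 (62.5%, 47 to 75.8%) and DNA replication and repair genes at 24 of 43 (55.8%, 41.1 to 69.6%). Cytosolic ribosomal protein genes stood lowest, at 13 of 66 (19.7%, 11.9 to 30.8%). These 3 intervals exclude 31.6%, and no test was made over the lists.

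The layout of the genes differed as well. Of oxidative phosphorylation genes 58.3% have an end within 2 kb of another gene's end, of replication and repair genes 61.1%, of ribosomal protein genes 45.6% and of all genes 34.4%. Over all protein-coding genes, 1060 of 6898 paired genes (15.4%) had a member peak, and 1711 of the 13139 outside pairs (13%) were bound. Of the paired oxidative phosphorylation genes 25 of 67 (37.3%) had a member peak, and of the 48 outside pairs 11 (22.9%) were bound. For replication and repair genes the values were 24 of 66 (36.4%) and 10 of 42 (23.8%), and for ribosomal protein genes 13 of 36 (36.1%) and 37 of 43 (86%). A gene counts as paired here if either of its ends is, so a paired gene can also be bound at its lone end. The 2 shares of each set are thus unlike measures. The first counts a peak at the paired end only, and the second any WT summit near the gene. With either end counted, 66 of 79 ribosomal protein genes (83.5%) were WT-bound. The share was 34.8% for oxidative phosphorylation genes, 39.8% for replication and repair genes and 16.7% for all genes.

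**Figure D5:**
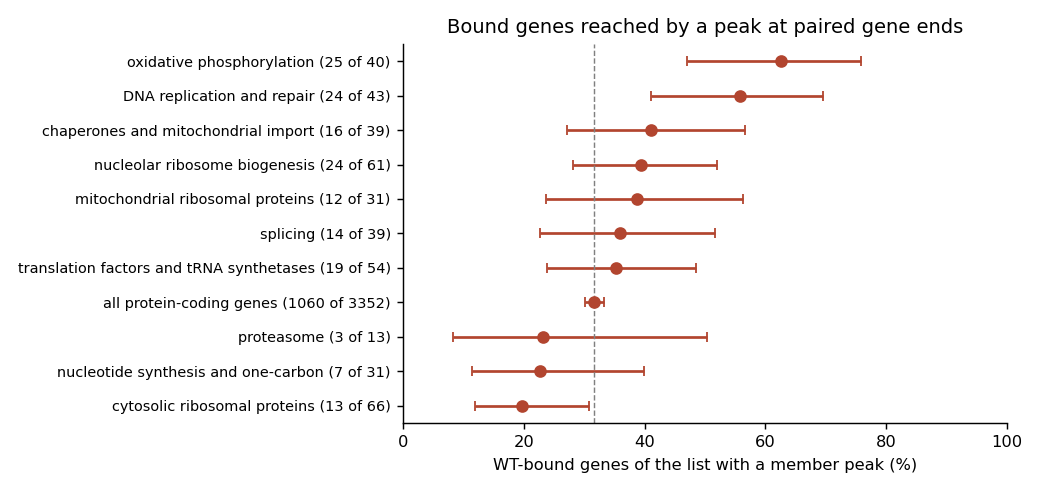
Percent of the WT-bound genes of each list that are reached by a peak at paired gene ends (horizontal axis), with Wilson 95% intervals and the counts beside each name; the dashed line marks all protein-coding genes. Oxidative phosphorylation (62.5%) and DNA replication and repair (55.8%) lie to the right of the line at 31.6%, and cytosolic ribosomal proteins (19.7%) to the left.

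Oxidative phosphorylation genes shared their sites with partners of varied function. NDUFS1, a complex I subunit gene, faced EEF1B2, a translation elongation factor gene, with 12.1 for WT and 4.08 for 3A. NDUFV3 with the tRNA methyltransferase cofactor gene WDR4 had 8.50, the 3′ end of NDUFA7 beside the CD320 start 8.40, and the complex I assembly gene NDUFAF5 with the nucleolar gene ESF1 8.01 and a 3A fold of 3.24. Of the 25 genes 4 had a 3A peak at the paired end (16%), and over all genes 227 of 1060 did (21.4%).

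Replication and repair genes at paired ends ranged from the strongest site of all to weak ones. After PMS2 they were led by POLE3, a DNA polymerase epsilon subunit gene (9.08, 3A fold 4.86), RAD50 of the MRN complex with IL5 (8.63, no 3A peak) and APEX1, the base excision repair endonuclease gene, with OSGEP (6.25, no 3A peak). The textbook pairs NPAT/ATM (4.01) and PRKDC/MCM4 (4.48), each with no 3A peak, lay below the members' median of 5.14. Of the 24 genes 4 had a 3A peak there (16.7%), beside 21.4% over all genes.

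Of the 13 ribosomal protein genes at paired ends 7 had a 3A peak there (53.8%), beside 21.4% over all genes. RPL5, RPL36A, RPL18 with SPHK2 (WT fold 10.9, 3A fold 4.57) and RPL35 with ARPC5L (9.68 and 3.97) led, while RPLP2 with PIDD1 (6.22) and RPS25 with TRAPPC4 (6.01) had no 3A peak. Of chaperone and mitochondrial import genes 16 of 39 bound genes were at paired ends and 8 of the 16 had a 3A peak. They were led by the import gene TIMM13 (9.75, no 3A peak), by HSPD1 and HSPE1, the mitochondrial chaperonin and its co-chaperonin (9.32 and 4.02), and by the chaperonin subunit genes CCT4 with COMMD1 (8.79 and 4.32) and CCT5 with ATPSCKMT (8.56 and 3.69). That 3A sharing is high at ribosomal protein genes was known from earlier results of these data.

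The other lists had shares of bound genes at paired ends whose intervals include the 31.6% over all genes. Their shares of these genes with a 3A peak varied more. They ran from 0% for proteasome genes to 42.1% for translation factor and tRNA synthetase genes, beside 21.4% over all genes. Nucleolar genes had 24 of 61 bound genes at paired ends, led by RRP9, UTP4 with CHTF8 (13.3), BOP1 with HSF1 (13.1) and GNL3 with the chromatin remodeller gene PBRM1 (12.97, 3A fold 2.98), and 4 of the 24 had a 3A peak. This list is partial. ESF1 and BRIX1, named above and each at a member with a 3A peak, are not on it. Translation factor and tRNA synthetase genes had 19 of 54, led by EARS2 with UBFD1 (12.2), EEF1B2, EIF3B with SNX8 (11.2, 3A fold 3.25) and YARS1 with S100PBP (9.72, 3A fold 3.99), and 8 of the 19 had a 3A peak. Splicing genes had 14 of 39, led by SF3B3, PRPF6 with SAMD10 (8.63), HNRNPK with RMI1 (7.89, 3A fold 3.18) and HNRNPA1 with CBX5 (6.24), and 4 of the 14 had a 3A peak. Mitochondrial ribosomal protein genes had 12 of 31, led by MRPL43 with the mitochondrial helicase gene TWNK (8.45), MRPS34 with EME2 (7.73, 3A fold 2.69), MRPL40 with HIRA (7.34, 3A fold 3.26) and MRPS26 with GNRH2 (6.95, 3A fold 3.74), and 4 of the 12 had a 3A peak. Nucleotide synthesis genes had 7 of 31, led by CAD, DTYMK with ING5 (5.84), ADK with AP3M1 (5.22) and PSPH with CCT6A (5.18, 3A fold 2.96), and 1 of the 7 had a 3A peak. The 3 proteasome genes, of 13 bound, were PSMD9 with HPD (5.39), PSMA7 with SS18L1 (3.395) and PSMC5 with FTSJ3 (3.05), none with a 3A peak.

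In 8 members both genes were on one of the lists, among them NDUFS1/EEF1B2, HSPD1/HSPE1, NDUFA7/RPS28, ERCC8/NDUFAF2, PSPH/CCT6A, PRKDC/MCM4 and FTSJ3/PSMC5. In 147 others 1 gene was listed, and the summit was nearer the listed gene in 96 of them (65.3%, 57.3 to 72.5%), at a median of 126 bp against 247 bp from the partner. Among the 100 of these that joined 2 starts it was nearer the listed gene in 64 (64%, 54.2 to 72.7%). The interval lies above an even split, but the lists were chosen with earlier results of these data known. These shares describe the listed pairs and are not a test.

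Of 13 textbook head-to-head pairs 5 were members. Over the genome, 27.8% of the 1228 pairs of starts had a WT summit within 1 kb of both. With 13 pairs no difference from that share can be read. The 5 members included HSPD1/HSPE1, NPAT/ATM and PRKDC/MCM4, and SURF1/SURF2 with a weak peak (2.88). GART/SON, a purine synthesis gene and a splicing factor gene, missed by distance, with the summit 891 bp and 1036 bp from their ends (fold 4.92). PPAT/PAICS, which encode steps of purine synthesis, had a WT fold of 11.2 at PPAT, but the outermost PAICS end is 25918 bp from any WT summit, so the rule does not see that pair. TRMT2A was bound (541 bp, fold 13.6) and its neighbour RANBP1 lay 1663 bp from that summit. SARS2/MRPS12, COL4A1/COL4A2, TAP1/PSMB9, HARS1/HARS2 and SERPINI1/PDCD10 had no WT summit within 1 kb of either gene.

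The E-box was found at paired and single sites at shares whose intervals overlap, both above the share over all promoters. CACGTG reads the same on both strands, and it was looked for in the promoter window from 250 bases before to 50 after the listed start nearest the summit. It was present in 96 of 481 paired windows (20%, 16.6 to 23.8%) and in 312 of 1842 windows at 1 gene (16.9%, 15.3 to 18.7%). It was present in 8.82% of 15842 windows of all protein-coding genes and in 7.21% of the 13036 of genes without a WT summit. The windows of all genes are those of the outermost start and were not picked by a summit, so they are not chosen alike. Among pairs of starts, taking 1 window per pair, that of the gene with the lower coordinates, it was present in 18.2% of 341 with a WT summit (14.5 to 22.6%) and in 6.31% of 887 without (4.89 to 8.11%). The related CACGCG, or CGCGTG on the other strand, was in 30.8% of paired windows (26.8 to 35%), 29.1% at 1 gene and 14.9% of all. A match describes the sequence and does not show a bound site.

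Where CACGTG was present, WT folds were higher. Paired peaks with it had a median WT fold of 6.26 (95% interval 5.54 to 7.45) and those without 4.93 (4.74 to 5.14), much as at 1 gene (6.13 and 4.88). The summit lay a median of 32.5 bp from the nearest CACGTG, within 50 bp in 60 of the 96 windows. Only the window of the start nearest the summit was searched, which favours short distances. No reference distance was taken. A 3A peak was present at 17.7% of paired sites with CACGTG (11.4 to 26.5%) and 22.1% of those without (18.2 to 26.5%), with overlapping intervals. The median GC content was 66.7% in paired windows, 68.3% at 1 gene and 62.7% over all.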

How the data were processed

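Each induced protein has 1 list of peaks, which the authors deposited as narrowPeak text. Tools named in the submitters' processing notes are cutadapt, Bowtie2, SAMtools, Picard and MACS2, and builds are hg19, mm10 and hg38, all without versions or roles. The sources used here do not state how peaks were called from 2 libraries, against which control, and with what use of mouse reads. For every peak the authors gave a fold over local background (a ratio), a −log10 q, a summit and a deposited score that was not used. No spike-in scaling was done.

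Spans were read from RefSeq GRCh38.p14 (20037 protein-coding genes on chromosomes 1 to 22, X and Y), and strand, starts and sequences from a RefSeq promoter table matching 15842 of them. On that build 2857 of 4749 WT summits lay within 1 kb of a protein-coding gene end. Positions count from 1. Peaks sharing at least 1 bp were called overlapping. Shares have Wilson 95% intervals, medians intervals from binomial order statistics, and differences the Newcombe combination of both. No test was made. The classification was tested on simulated data.

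Members and lists were chosen with earlier results of these data known. All 789 list symbols matched, giving 788 different genes. Named were the 10 members with the highest WT and 3A fold, all with 7A, the 5 widest, up to 4 per list, textbook pairs and 3 peaks on each side of the limit. One pair that this rule names is not reported here. Other names, such as 3A sites without WT and pairs with 2 peaks, were chosen after their values were seen. Scripts ran in Python 3.11.15 with pandas 2.3.3, numpy 2.4.6, scipy 1.17.1 and matplotlib 3.10.9.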

Additional observations from a re-analysis of the deposited data

How the results depend on the processing

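Of 57 alternative values 42 stayed within the interval of the reported value, or within 1.5 times the reported count, and were counted as unchanged. A further 7, all of the 3A difference, also stayed within that interval, but their own intervals included 0. The other 8 lay outside. No difference whose interval excludes 0 changed sign. The difference in WT fold, 0.0874 with an interval including 0, had the other sign, -0.0908 (-0.256 to 0.0686), with all genes of the table. With a window of 500 bp there were 336 paired peaks, and with non-coding genes and pseudogenes included 1206, in place of 538. The share of members joining 2 starts, 83.3% as reported, was 89.7% with a window of 500 bp, 72.9% with 2 kb, 78.9% when overlapping spans were not counted as a pair, and 90.8% with all genes of the table. WT summits per Mb of genome were 2.84 times as dense within 1 kb of paired ends as within 1 kb of 1 gene (2.58 to 3.12), 2.39 times with a window of 2 kb and 6.41 times with all genes. The zone of 1 gene includes lone 3′ ends.

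The 3A difference of 3.79 points had an interval including 0 with a window of 500 bp (3.84 points), with separate spans only (3.62), with 50% overlap (1.72), with summits within 100 bp (1.09), with 3A and 7A peaks of −log10 q of at least 5 (3.03), and within ranges of WT fold (3.38) or width (2.98). Its interval still excluded 0 with a window of 2 kb (3.55) and with WT peaks of −log10 q of at least 5 (3.81) or 10 (3.85). The same held with each gene pair counted once (4.08) and with all genes of the table (3.54). The cause was not tested. The width difference kept its direction under all 8 alternatives, although not in the lowest range of WT fold taken alone. No paired analysis was possible because each protein has 1 peak list, which carries no replicate number, and for the same reason no replicate could be left out. Counts of 7A peaks limit what could be seen for that mutant.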
